A study of Mus musculus with 32 samples.

Results

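The sites described here are the places in the genome of mouse embryonic stem (ES) cells where Myc was found but the acetylation mark H3K9ac was not. They were chosen by a rule on wild-type data alone, as the Myc peaks of chromosomes 1 to 19 that shared no base with an H3K9ac peak. Of 539 wild-type Myc peaks, 531 lay on those chromosomes and 213 of them met the rule, which leaves 318 Myc peaks with H3K9ac for comparison. A run of peaks on chromosome 3 that the rule sets aside held 0 Myc peaks. The 213 sites were spread over all 19 chromosomes, with between 3 (chromosome 18) and 29 (chromosome 11) on each.

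Myc is a transcription factor that pairs with Max, binds DNA mainly near the start sites of active genes, and is known in ES cells for supporting growth and self-renewal. Histone acetylation at lysine 9 of histone H3 (H3K9ac) marks active promoters and is written by acetyltransferases such as GCN5, the enzyme of the SAGA coactivator complex. TAF5L and TAF6L are structural subunits of that complex. H3K4me3, methylation at lysine 4 of the same histone, also marks promoters and is written by other enzymes, so a Myc site can lack one mark and carry the other.

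The data are chromatin immunoprecipitation followed by sequencing (ChIP-seq) in the J1 mouse ES cell line. Cells with a knockout of Taf5l (Taf5l-KO), cells with a knockout of Taf6l (Taf6l-KO) and wild-type cells were each used with antibodies to Myc, Oct4, H3K9ac, H3K4me3 and RNA polymerase II in 3 forms. These forms are the total enzyme (RNAP), and the enzyme phosphorylated at serine 5 (RNAP-ser5, typical of initiation) or at serine 2 (RNAP-ser2, typical of elongation) of its C-terminal repeats. TAF5L and TAF6L with a Flag-Biotin tag (TAF5L-FB, TAF6L-FB) were also precipitated on streptavidin from 2 cell lines each, with cells that carry only the biotin ligase BirA as the control. The labels do not say how the knockouts were made or how many clones they stand for. The state of Taf5l and Taf6l in the cells was not checked here, because peak lists do not show it.

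There was 1 library per antibody and genotype, so no difference between genotypes could be tested, and counts are given side by side. The 21 libraries of the knockout series held 1702363 to 22968606 unique tags and the 5 streptavidin libraries 18292747 to 27775010. Intervals after shares are exact (Clopper-Pearson) 95% binomial intervals, those after differences of shares are Newcombe 95% intervals, and both cover counting error only. Fold enrichment is the authors' own value for a peak, its pileup over the local background. It was used to rank and describe peaks within 1 list, since ChIP and input were scaled to each other library by library. Input tags numbered the same for all 7 targets of a genotype, 6245652 in Taf5l-KO, 5923469 in Taf6l-KO and 7771755 in wild type. This points to 1 input shared within each genotype. Positions are in the build mm9. No annotation or sequence of that build was used here, so the sites carry no gene names.

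By the values that chose them, the sites were Myc peaks of middling strength. Their Myc fold enrichment was 1.85 at the lowest, 7.76 at the median and 25.6 at the highest, against 2.68, 8.73 and 41.6 at the 318 Myc peaks with H3K9ac. Their median width was 132 bp, against 190.5 bp with H3K9ac. The strength curves of both kinds overlapped over most of their range, with the sites without H3K9ac shifted to lower values. These numbers describe the selection and were not tested.

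**Figure D1:**
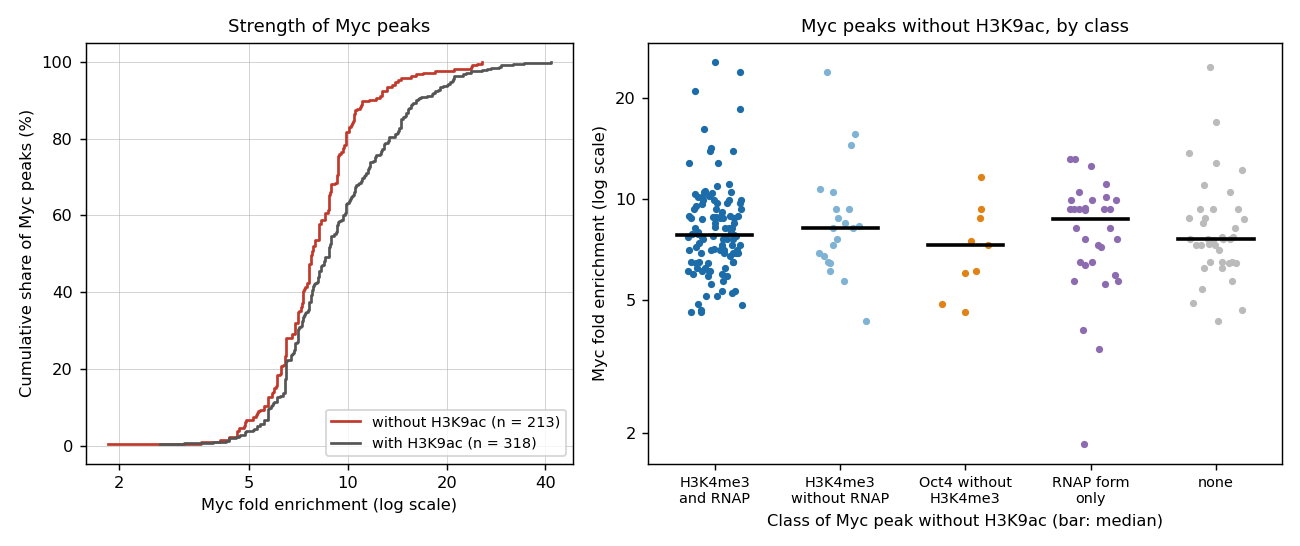
Left, cumulative share of wild-type Myc peaks (y axis, %) by Myc fold enrichment (x axis, log scale) for the 213 peaks without H3K9ac and the 318 with it. Right, Myc fold enrichment (log scale) of each site without H3K9ac by class of other wild-type peaks, with the class median as a bar; medians lie between 7.25 and 8.70.

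The label "without H3K9ac" covers sites both beside and far from acetylated chromatin. Of the 213, 68 (31.9%) had an H3K9ac peak within 1000 bp, 17 had the nearest one 1001 to 10000 bp away, 74 between 10001 and 100000 bp, and 54 farther still. The median distance was 26976 bp. The distribution had 2 humps, with few sites in between. Just inside the rule were chr7:133768959-133769224 (Myc fold enrichment 5.12), which lay 2 bp from an H3K9ac peak, chr15:11967007-11967255 (9.23) at 3 bp, and chr5:119215467-119215675 (12.5) and chr11:31269892-31270048 (6.09), each at 9 bp. Just outside it were chr4:117507931-117508040 (6.84), which shared 1 bp with an H3K9ac peak, chr4:146254311-146254489 (4.64) with 3 bp, and chr11:60693097-60693239 (9.88) with 9 bp. Sites at the edge of the rule on either side were thus near neighbours of H3K9ac peaks. The rule also depends on how many H3K9ac peaks are listed: with only those of −log10 q of at least 5, 370 Myc peaks would be without H3K9ac.

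**Figure D2:**
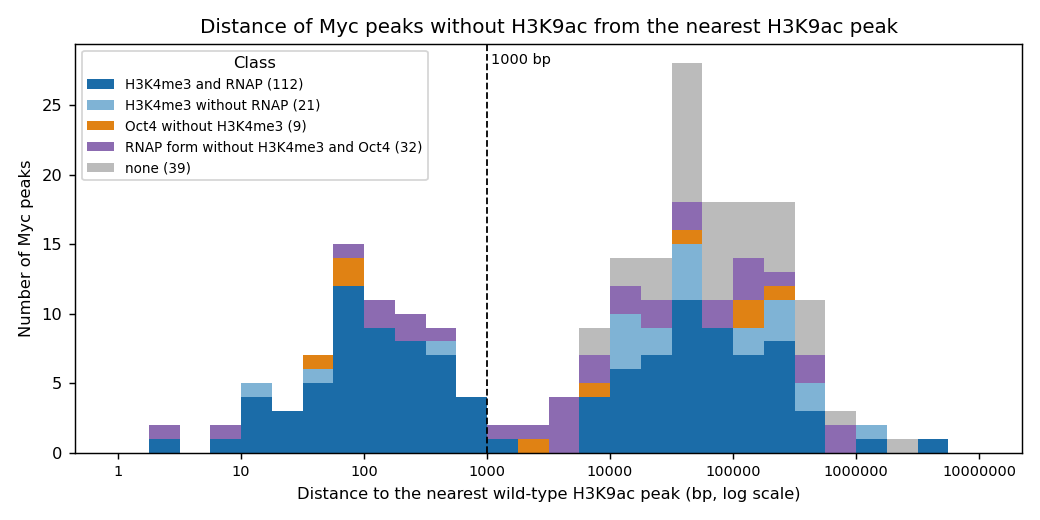
Number of Myc peaks without H3K9ac (y axis) by distance to the nearest wild-type H3K9ac peak (x axis, bp, log scale), stacked by class of other wild-type peaks. The dashed line is at 1000 bp, with 68 sites to its left and 145 to its right, and the class with none of the other peaks appears only to the right.

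Most of the sites carried another peak of the knockout series. In wild-type cells 174 of the 213 (81.7%) overlapped a peak of H3K4me3, Oct4 or some form of RNA polymerase II. Both H3K4me3 and RNAP were listed at 112 sites (52.6%, 45.6 to 59.4), against 305 of 318 (95.9%) at the Myc peaks with H3K9ac. H3K4me3 without RNAP was found at 21 sites, against 6 with H3K9ac, and a polymerase form without H3K4me3 and Oct4 at 32, against 5. Oct4 without H3K4me3 was found at 9 sites, against 0. None of these peaks was listed at 39 sites (18.3%, 13.4 to 24.2), against 2 (0.629%) of the Myc peaks with H3K9ac. Myc strength varied little between the classes, with median fold enrichments of 7.81 (H3K4me3 and RNAP), 8.16 (H3K4me3 without RNAP), 7.25 (Oct4), 8.70 (a polymerase form) and 7.59 (none).

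**Figure D3:**
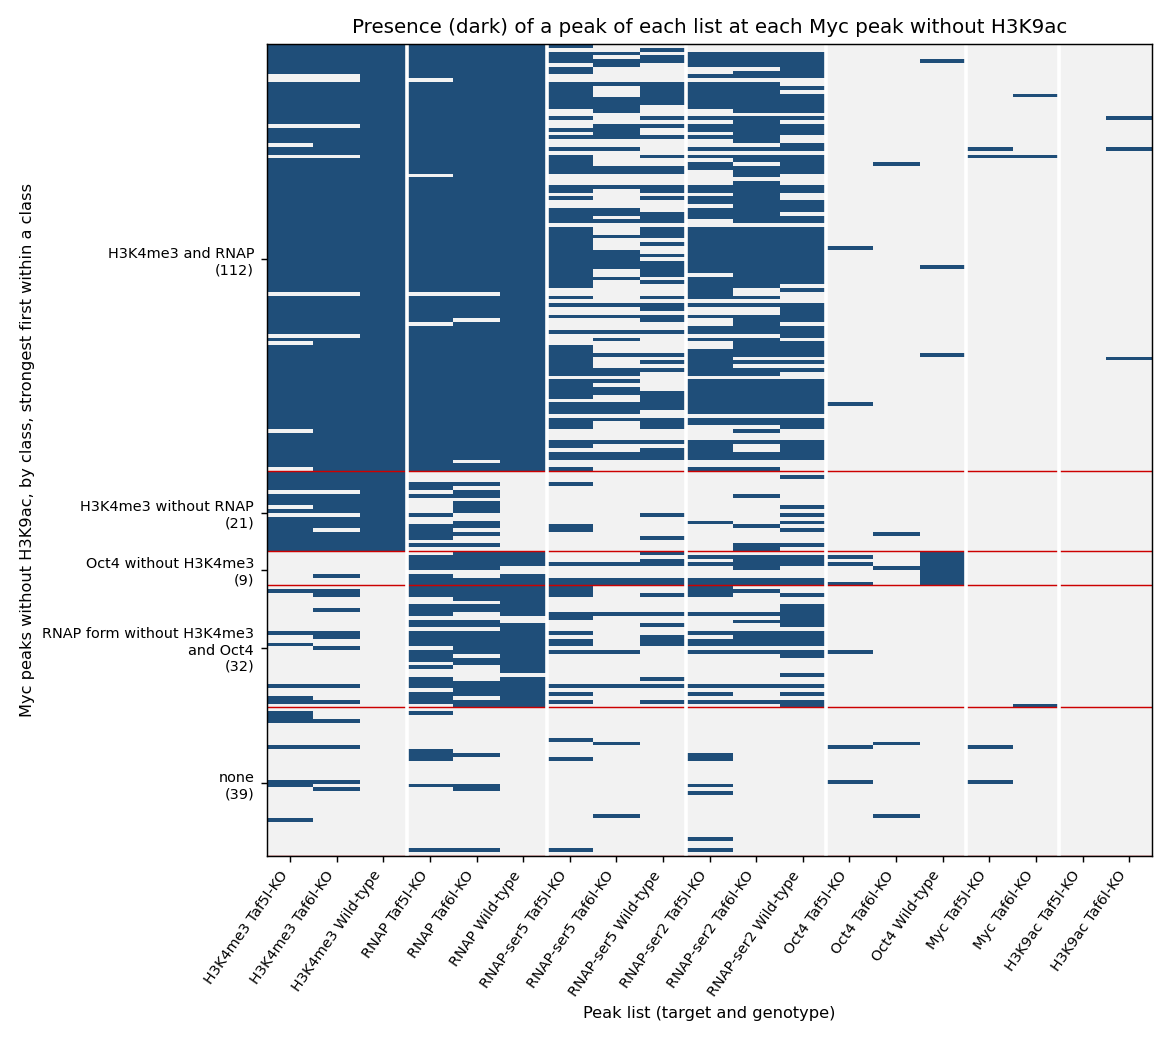
Each row is one of the 213 Myc peaks without H3K9ac, sorted by class and then by Myc fold enrichment. Each column is a peak list (target and genotype), dark where a peak of that list overlaps the site. H3K4me3 and RNAP columns are alike across genotypes, while the Myc and H3K9ac columns of the knockouts are nearly empty.

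The promoter mark H3K4me3 was called at most of the sites, at similar numbers in each genotype. Peaks overlapped 133 sites in Taf5l-KO (62.4%, 55.6 to 69.0), 137 in Taf6l-KO (64.3%, 57.5 to 70.7) and 133 in wild type (62.4%, 55.6 to 69.0). Over all 531 Myc peaks the shares were 82.3% in Taf5l-KO, 83.8% in Taf6l-KO and 83.6% in wild type. Myc peaks without H3K9ac therefore had H3K4me3 less often than those with it: the difference was −33.2 percentage points (−40.1 to −26.3) in Taf5l-KO, −32.5 in Taf6l-KO and −35.4 (−42.1 to −28.7) in wild type. It was present in each tertile of Myc strength, at −34.4, −37.6 and −33.1 points in wild type from the weakest to the strongest tertile. Where the sites did have H3K4me3 in wild type, those peaks had a median fold enrichment of 8.73 and a median width of 1919 bp. That lay below the 10.4 and 3216 bp of H3K4me3 peaks at Myc peaks with H3K9ac, and above the 5.55 and 794 bp of the whole wild-type H3K4me3 list.

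**Figure D4:**
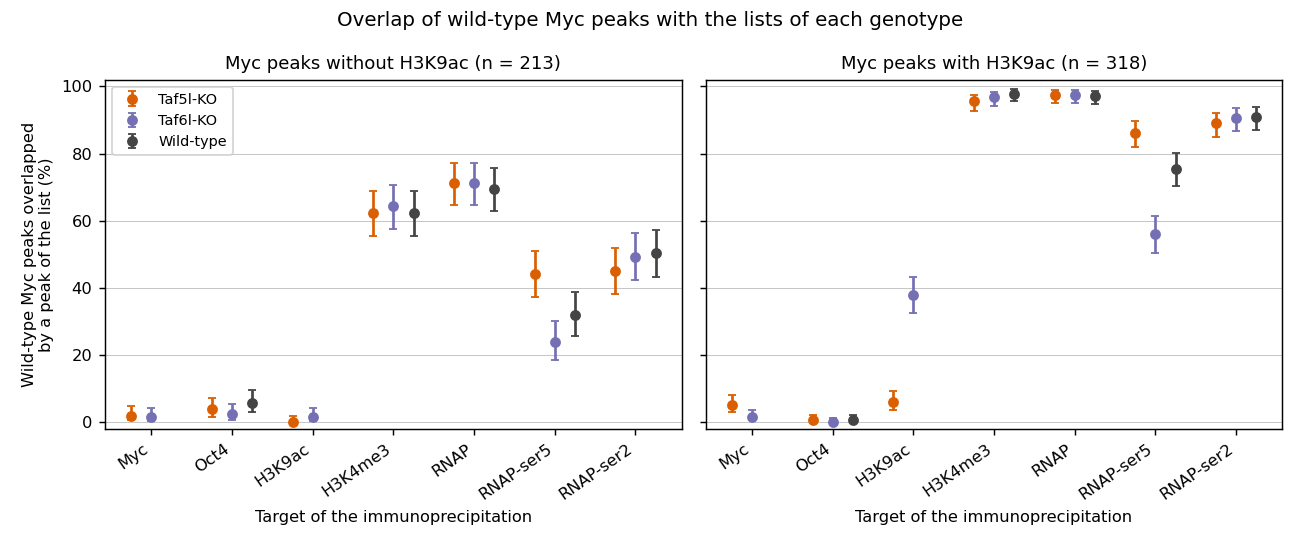
Share of wild-type Myc peaks overlapped by a peak of each list (y axis, %) for the 213 without H3K9ac (left) and the 318 with it (right), by target (x axis) and genotype (colour). Bars are exact 95% binomial intervals. H3K4me3 lies at 62.4 to 64.3% on the left and at 95.6 to 97.8% on the right in all 3 genotypes.

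Individual H3K4me3 calls at these sites were also mostly shared between genotypes. Of the 133 sites with the mark in wild type, 120 had it in Taf5l-KO (90.2%, 83.9 to 94.7) and 124 in Taf6l-KO (93.2%, 87.5 to 96.9). Over all wild-type H3K4me3 peaks of these chromosomes the shares were 84.2% for Taf5l-KO and 80.3% for Taf6l-KO, and at Myc peaks with H3K9ac 97.1% and 98.1%. At 119 sites the mark was listed in all 3 genotypes, and at 61 in none, against 300 and 4 of the 318 Myc peaks with H3K9ac. Of the 80 sites without it in wild type, 13 had it in each knockout (16.3%), where all Myc peaks without wild-type H3K4me3 gave 17.2% for Taf5l-KO and 18.4% for Taf6l-KO.

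Some sites departed from this pattern. H3K4me3 was listed in both knockouts but not in wild type at 7 of the 80 sites without it there (8.75%), against 10.3% of all such Myc peaks. Of the 7, 3 lay 37, 133 and 275 bp from a wild-type H3K4me3 peak, and 2 neighbours on chromosome 19 lay under 1 Taf5l-KO Myc peak. Their H3K4me3 fold enrichments were between 3.66 and 12.4 for Taf5l-KO, and between 3.37 and 15.9 for Taf6l-KO. Ranked by Myc, the first of them was chr19:9681275-9681417 (Myc fold enrichment 13.1). It had H3K4me3 at 6.88 in Taf5l-KO and 6.93 in Taf6l-KO, and the nearest wild-type H3K4me3 peak lay 146935 bp away. It also carried RNAP in all 3 genotypes, at 6.17 in Taf5l-KO, 4.30 in Taf6l-KO and 4.24 in wild type. Conversely, 8 of 133 sites had H3K4me3 in wild type only (6.02%), against 2.7% of all such Myc peaks, at fold enrichments of 3.08 to 9.28 (median 4.26).

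With all listed peaks counted, RNA polymerase II was the most frequent companion of these Myc sites. Total RNAP peaks overlapped 152 sites in Taf5l-KO (71.4%, 64.8 to 77.3), 152 in Taf6l-KO (71.4%) and 148 in wild type (69.5%, 62.8 to 75.6), with 87% in Taf5l-KO, 87% in Taf6l-KO and 86.1% in wild type over all 531 Myc peaks. Set against Myc peaks with H3K9ac, RNAP was listed less often, with a difference of −26.1 points in each knockout and −27.7 points (−34.3 to −21.4) in wild type. Many of these RNAP peaks were weak: with those of −log10 q of at least 5, 43.2% of the sites had RNAP in wild type, and the difference was −44.9 points. At that threshold H3K4me3 was listed more often than RNAP in each genotype. RNAP was listed in all 3 genotypes at 127 sites (59.6%), against 303 of the 318 Myc peaks with H3K9ac. Of the 148 sites with RNAP in wild type, 135 had it in Taf5l-KO (91.2%, 85.4 to 95.2) and 136 in Taf6l-KO (91.9%, 86.3 to 95.7), where all wild-type RNAP peaks gave 52.5% and 60.1% and Myc peaks with H3K9ac 98.7% in each knockout. Their wild-type RNAP peaks were also stronger and wider than those of the whole list, with a median fold enrichment of 5.76 against 4.34 and a median width of 819 bp against 477 bp. Of the 65 sites without RNAP in wild type, 17 had it in Taf5l-KO (26.2%) and 16 in Taf6l-KO (24.6%), close to the 29.7% and 28.4% of all Myc peaks without wild-type RNAP.

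The phosphorylated forms were less frequent, and at −log10 q of at least 5 RNAP-ser2 was left at 14.1% and RNAP-ser5 at 7.04% of the sites in wild type. RNAP-ser2, the elongating form, overlapped 96 sites in Taf5l-KO (45.1%), 105 in Taf6l-KO (49.3%) and 107 in wild type (50.2%), with 71.4% (Taf5l-KO), 74% (Taf6l-KO) and 74.6% (wild type) over all Myc peaks. Of the 107, 75 were found again in Taf5l-KO (70.1%, 60.5 to 78.6) and 83 in Taf6l-KO (77.6%, 68.5 to 85.1), against 36.4% and 38.3% of all wild-type RNAP-ser2 peaks and 92.7% and 94.1% of those at Myc peaks with H3K9ac. Of the 106 sites without it in wild type, 21 had it in Taf5l-KO (19.8%) and 22 in Taf6l-KO (20.8%), where all such Myc peaks gave 26.7% and 28.1%. RNAP-ser5, the initiating form, overlapped 94 sites in Taf5l-KO (44.1%, 37.4 to 51.1), 51 in Taf6l-KO (23.9%, 18.4 to 30.3) and 68 in wild type (31.9%, 25.7 to 38.6), with 69.3% (Taf5l-KO), 43.1% (Taf6l-KO) and 58% (wild type) over all Myc peaks. Taf5l-KO thus gave the most RNAP-ser5 calls and Taf6l-KO the fewest, as they also did at the Myc peaks with H3K9ac, with 274 of 318 in Taf5l-KO, 178 in Taf6l-KO and 240 in wild type. The libraries ranked alike in unique tags, with 8807133 in Taf5l-KO, 1702363 in Taf6l-KO and 3871824 in wild type, whose part in the result was not tested. Of the 68 sites with RNAP-ser5 in wild type, 55 were found again in Taf5l-KO (80.9%, 69.5 to 89.4) and 32 in Taf6l-KO (47.1%, 34.8 to 59.6), against 26.3% and 16% of all wild-type RNAP-ser5 peaks and 96.3% and 66.7% of those at Myc peaks with H3K9ac. Of the 145 sites without it in wild type, 39 had it in Taf5l-KO (26.9%) and 19 in Taf6l-KO (13.1%), where all such Myc peaks gave 36.8% and 16.6%.

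**Figure D5:**
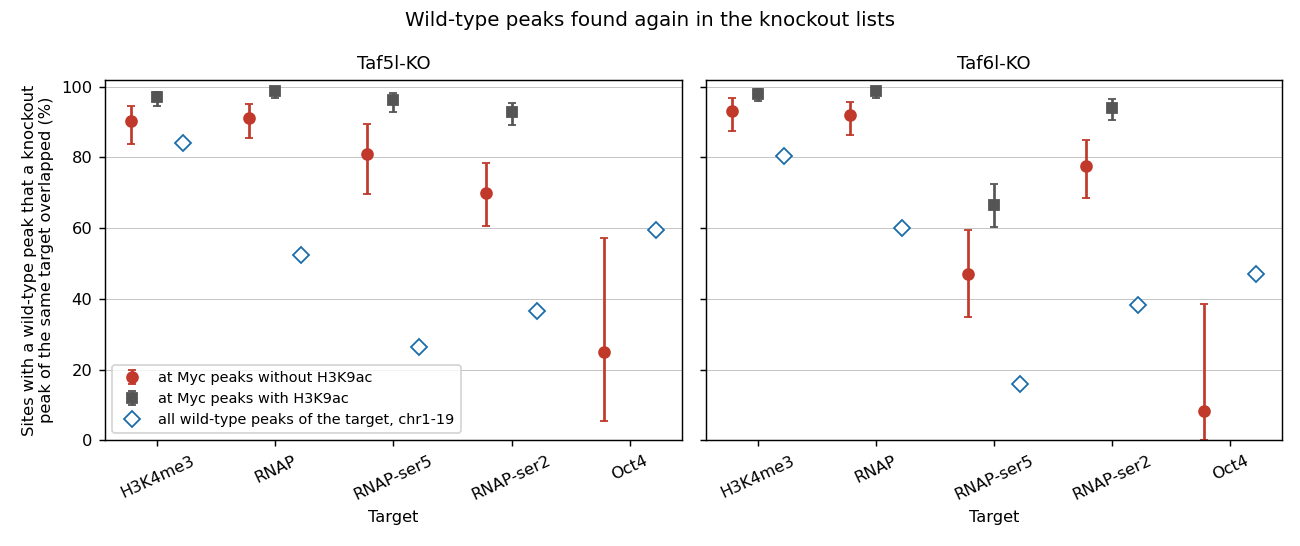
Of the sites with a wild-type peak of a target, the share (y axis, %) that a peak of the same target overlapped in Taf5l-KO (left) and Taf6l-KO (right), at Myc peaks without H3K9ac (circles) and with it (squares), with exact 95% binomial intervals, beside all wild-type peaks of the target (diamonds). Circles lie above diamonds and below squares for H3K4me3 and the polymerase forms, and below diamonds for Oct4, and Oct4 has no square because only 2 Myc peaks with H3K9ac carried it.

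All 3 polymerase forms were listed together in wild type at 57 sites (26.8%), against 229 (72.0%) of the Myc peaks with H3K9ac. For RNAP-ser5 the difference was −42.0 points in Taf5l-KO, −32.0 in Taf6l-KO and −43.5 in wild type. For RNAP-ser2 it was −43.9 points in Taf5l-KO, −41.3 in Taf6l-KO and −40.6 in wild type.

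Sites near acetylated chromatin had polymerase and H3K4me3 more often than sites far from it. Of the 68 sites within 1000 bp of an H3K9ac peak, 57 had H3K4me3 in wild type (83.8%, 72.9 to 91.6), against 76 of the 145 farther sites (52.4%, 44.0 to 60.8). RNAP was listed at 65 near sites (95.6%) against 83 far ones (57.2%), and RNAP-ser5 at 45 (66.2%) against 23 (15.9%). RNAP-ser2 was listed at 57 near sites (83.8%) and 50 far ones (34.5%). Myc strength showed no order with distance, with median fold enrichments of 7.87 within 1000 bp, 6.89 from 1001 to 10000 bp, 8.16 from 10001 to 100000 bp and 7.30 beyond. Of the 57 near sites with H3K4me3, 56 lay in an H3K4me3 peak that an H3K9ac peak also touched, against 1 of the 76 far ones. Apart from that 1, the far sites with H3K4me3 lay in H3K4me3 peaks free of listed H3K9ac. Much of this contrast follows from the cut itself. Near and far were set by distance to H3K9ac, and wild-type H3K4me3 peaks at the sites had a median width of 1919 bp. Whether the H3K9ac peak in the same H3K4me3 peak was the nearest one was not checked.

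The strongest Myc sites without H3K9ac were mixed in their surroundings. Among the 10 with the highest Myc fold enrichment, 8 had H3K4me3 and 5 had RNAP in wild type, and 0 had a Myc peak in either knockout. The first, chr11:105927204-105927406 (Myc fold enrichment 25.6), lay 139 bp from an H3K9ac peak and had H3K4me3 at 15.1 in Taf5l-KO, 13.6 in Taf6l-KO and 9.65 in wild type, with RNAP at 4.62 in Taf5l-KO, 6.01 in Taf6l-KO and 4.09 in wild type. The third, chr8:88015992-88016347 (23.9), lay 62700 bp from H3K9ac and had RNAP at 5.96 in Taf5l-KO, 6.52 in Taf6l-KO and 6.98 in wild type. Both carried H3K4me3 and RNAP in all 3 genotypes. By contrast, chr8:23655448-23655748 (24.8), second in rank, had no other peak in any list of any genotype, and its nearest H3K9ac peak was 44147 bp away. The fourth, chr17:34027730-34027946 (23.8), had H3K4me3 alone, at 10.1 in Taf5l-KO, 9.42 in Taf6l-KO and 9.11 in wild type. Little besides H3K4me3 was listed at chr14:119086186-119086376 (15.6), at 6.16 in Taf5l-KO, 6.50 in Taf6l-KO and 5.94 in wild type, and a site on chromosome 18 (14.5), at 4.27 in Taf5l-KO, 2.97 in Taf6l-KO and 4.23 in wild type. The other named sites of the top 10 were chr2:167515444-167515768 (21.0), chr10:126727424-126727671 (18.5), chr13:67456171-67456484 (16.9) and chr2:168032836-168033085 (16.2).

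The 39 sites with no H3K4me3, Oct4 or polymerase peak in wild type all lay farther than 1000 bp from H3K9ac, at a median of 70231 bp and no nearer than 7275 bp. A knockout peak of some target touched 17 of them, and the share of all Myc peaks so touched is not given here. By list, 17.9% of the 39 had H3K4me3 in Taf5l-KO and 10.3% in Taf6l-KO. All Myc peaks without wild-type H3K4me3 gave 17.2% and 18.4%. RNAP was at 15.4% in Taf5l-KO and 10.3% in Taf6l-KO, against 29.7% and 28.4% of all Myc peaks without wild-type RNAP. One of the 17 was chr17:27053723-27053912 (Myc fold enrichment 13.6), which had H3K4me3 at 11.1 in Taf5l-KO and lay 163 bp outside a wild-type H3K4me3 peak. Another was chr13:67456171-67456484, which had H3K4me3 at 3.67 and RNAP at 3.80 in Taf5l-KO. No other peak in any list touched 22 sites (10.3%, 6.59 to 15.2). Myc peaks with H3K9ac could not meet this, since H3K9ac itself is listed there. Of those 318, 2 (0.629%) lacked H3K4me3, Oct4 and polymerase peaks in wild type. The Myc fold enrichment of the 22 was 4.33 to 24.8 with a median of 7.29, close to the 7.76 of all 213. Their nearest wild-type H3K4me3 peak lay 36 to 55736 bp away. Some had it within 1000 bp, at 36, 115, 248, 322, 329 and 696 bp. For those, the lack of another peak rests on the 1 bp overlap.

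Oct4, the POU-family factor at the core of the pluripotency network, was found at few of these sites. Its peaks overlapped 8 in Taf5l-KO (3.76%, 1.64 to 7.27), 5 in Taf6l-KO (2.35%, 0.766 to 5.39) and 12 in wild type (5.63%, 2.94 to 9.63), with 1.88% (Taf5l-KO), 0.942% (Taf6l-KO) and 2.64% (wild type) over all Myc peaks. The Myc peaks with H3K9ac had 2 in Taf5l-KO, 0 in Taf6l-KO and 2 in wild type. The difference in wild type was 5.00 points (2.12 to 8.99). Among the 7 targets it is Oct4 that was listed more often at Myc peaks without H3K9ac than at those with it. Counting the sites within 1000 bp of H3K9ac with the acetylated ones left 2.07 points (−0.904 to 6.77) in wild type. The Taf5l-KO difference, 3.13 points, was −0.787 in the strongest tertile of Myc peaks, and at −log10 q of at least 5 Oct4 was left at 0.939% of the sites in Taf5l-KO. Of the 12 wild-type sites, 3 kept an Oct4 peak in Taf5l-KO (25%, 5.49 to 57.2) and 1 in Taf6l-KO (8.33%, 0.211 to 38.5), where all wild-type Oct4 peaks gave 59.4% and 47%. Oct4 was listed in all 3 genotypes at 0 of the 213 sites, and likewise at 0 of the 318 Myc peaks with H3K9ac. Of the 201 without it in wild type, 5 had it in Taf5l-KO (2.49%) and 4 in Taf6l-KO (1.99%), against 1.35% and 0.774% of all such Myc peaks.

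RNAP accompanied Oct4 at 10 of the 12 sites and H3K4me3 at 3. The strongest by Myc was chr2:168032836-168033085, with Oct4 at 6.34 in wild type and none in the knockouts, and H3K4me3 at 12 in Taf5l-KO, 12.9 in Taf6l-KO and 11.9 in wild type. Next came chr1:52170639-52170824 (Myc fold enrichment 11.6), with Oct4 at 6.96 in wild type only, and chr7:4653956-4654114 (9.28), with Oct4 at 9.25 in Taf5l-KO and 9.62 in wild type. Of the Oct4 sites, 3 lay close together on chromosome 11, at chr11:87256792-87256895, chr11:87262147-87262285 and chr11:87275843-87275963, and were singled out after their values were seen. Their wild-type Oct4 fold enrichments were 9.99, 9.16 and 8.33. Their RNAP fold enrichments were 16.5, 14.3 and 17.8 in Taf5l-KO, where the median over the sites with RNAP was 6.54. They were 13.7, 17.4 and 14.8 in Taf6l-KO (median 7.32), and 35.7, 30.9 and 37.0 in wild type (median 5.76). The genotypes were not compared with each other in these values. The last 2 of these chromosome 11 sites kept Oct4 in Taf5l-KO, at 3.38 and 4.46, and so make up 2 of the 3 Oct4 sites found again there. H3K9ac peaks lay 89, 49 and 95 bp away.

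Both tagged proteins were found at some of the sites, from lists of very unequal length, 138 TAF5L-FB regions and 1631 TAF6L-FB regions. As a share of its own list, 1.84% (1.24 to 2.62) of TAF6L-FB regions and 2.17% (0.451 to 6.22) of TAF5L-FB regions touched a site. TAF6L-FB regions of either line, outside BirA regions, overlapped 30 sites (14.1%, 9.71 to 19.5), against 31 Myc peaks with H3K9ac (9.75%, 6.72 to 13.6) and 11.5% of all Myc peaks. The difference of 4.34 points had an interval that includes 0 (−1.18 to 10.3). TAF5L-FB regions overlapped 3 sites (1.41%), against 3 with H3K9ac (0.943%) and 1.13% of all. BirA peaks overlapped 0. The 2 TAF6L-FB lines rarely met at the same site: 20 sites had a peak in replicate 1, 12 in replicate 2 and 2 in both. This was not particular to these sites. Of the 318 Myc peaks with H3K9ac, 28 had a peak in replicate 1, 7 in replicate 2 and 4 in both. The whole lists, of 1144 and 639 peaks, joined to 1631 regions outside BirA regions. The share of 14.1% was 5.63% without replicate 1 and 9.39% without replicate 2. It was 1.41% (3 sites) with the replicate 1 peaks that a replicate 2 peak touched, whether or not the replicate 2 peak itself reached the site. One of the 2 sites with a peak in both lines, chosen after its values were seen, was chr1:59433115-59433219 (Myc fold enrichment 6.01), with TAF6L-FB at 4.43 and 4.38 and Oct4 at 6.87 in wild type. The other was chr15:74917191-74917439, with TAF6L-FB at only 1.33 and 1.84 and the lowest Myc fold enrichment of the 213 (1.85).

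TAF6L-FB was found almost wholly at sites with polymerase. Of the 30 sites 29 had RNAP and 22 had H3K4me3 in wild type, where 69.5% and 62.4% of all 213 did. Of the 30, 16 lay within 1000 bp of H3K9ac, so TAF6L-FB was found at 23.5% of near sites and 9.66% of far ones. Of the 12 wild-type Oct4 sites, 8 had TAF6L-FB, against 30 of all 213 sites (14.1%). The share over all wild-type Oct4 peaks is not given here, and 3 of the 12 lie close together on chromosome 11. The 3 strongest by Myc were chr10:126727424-126727671 (18.5; TAF6L-FB at 4.53 in replicate 1), chr2:168032836-168033085 (16.2; 5.84 in replicate 1) and chr5:142843468-142843761 (14.2; 5.89 in replicate 1). A site where both proteins were found was chr14:76894931-76895202 (8.73), with TAF5L-FB at 4.57, TAF6L-FB at 5.30 in replicate 2 and Oct4 at 6.96 in wild type.

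Myc itself was listed at almost none of the sites in the knockouts. A Myc peak overlapped 4 sites in Taf5l-KO (1.88%, 0.514 to 4.74) and 3 in Taf6l-KO (1.41%, 0.291 to 4.06), with 3.77% and 1.51% over all 531 Myc peaks. The Myc peaks with H3K9ac gave 16 (5.03%) and 5 (1.57%), and the differences were −3.15 points (interval −6.35 to 0.278) for Taf5l-KO and −0.164 for Taf6l-KO. Both intervals include 0. With 50% of the site covered, or by the Myc summit, 0 sites had Myc in Taf6l-KO. The fragment length modelled for Myc was 51 bp in Taf5l-KO and 50 bp in Taf6l-KO, against 95 bp in wild type, and its part in the result was not tested. Unique Myc tags numbered 11653920 in Taf5l-KO, 8843637 in Taf6l-KO and 9731773 in wild type.

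The 6 sites with Myc in a knockout fell into kinds that differ in their other marks. Myc was listed in both knockouts at chr11:57916185-57916401 alone, with fold enrichments of 5.59 in Taf5l-KO, 6.64 in Taf6l-KO and 9.31 in wild type. There RNAP was at 8.63 in Taf5l-KO, 9.82 in Taf6l-KO and 5.52 in wild type, while H3K4me3 was listed in wild type only, at 9.28. A site with Myc in Taf5l-KO at chr7:52384287-52384501 had a fold enrichment of 8.06 in Taf5l-KO and 9.65 in wild type. Another at chr16:35771307-35771521 had Myc at 6.07 in Taf6l-KO and 10.5 in wild type. Both had H3K4me3 and RNAP in all 3 genotypes.

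Of the remaining 3, chr19:53881168-53881309 and chr19:53881364-53881513 are neighbours under 1 Taf5l-KO Myc peak, chr19:53881194-53881584, so the 4 sites of Taf5l-KO stand for 3 peaks. That peak had a fold enrichment of 13.7, where the median of the Taf5l-KO Myc list was 8.58. In the wild-type list the pair had 7.59 and 8.73, where the median of the 213 sites was 7.76. Values of the 2 lists were not compared with each other. At chr19:53881364-53881513 the knockout lists also held peaks that the wild-type lists did not, with H3K4me3 at 7.94 in Taf5l-KO and 6.26 in Taf6l-KO and Oct4 at 5.10 in Taf5l-KO. The last, chr15:74917191-74917439, had Myc at 2.28 in Taf6l-KO and 1.85 in wild type, the lowest fold enrichment of the 213, but with a wild-type pileup of 147 where the median was 12.8. It also had TAF6L-FB at 1.33 in replicate 1 and 1.84 in replicate 2. With the fold enrichment so low, the local background was also high there.

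H3K9ac was called at very few of the sites in the knockouts. In Taf5l-KO 0 of 213 sites had an H3K9ac peak, which allows a share of up to 1.41% by the limit of 3 counts and of 1.72% by the exact interval, and in Taf6l-KO 3 had one (1.41%), with 3.58% (Taf5l-KO) and 23.2% (Taf6l-KO) over all Myc peaks. Since the sites were chosen for the absence of wild-type H3K9ac, these counts only describe them. The 3 were chr17:29032338-29032600 (4.74 in Taf6l-KO), 56590 bp from wild-type H3K9ac, chr7:52384287-52384501 (5.61), 191 bp away, and chr1:39712036-39712157 (10.2), 64 bp away. All 3 had H3K4me3 and RNAP in wild type, and the second of them is also one of the sites with Myc in Taf5l-KO.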

How the data were processed

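Deposited peak lists of 26 ChIP-seq libraries of J1 ES cells were used, 1 per library. The submitters' processing notes name Bowtie2 2.3.2, deepTools 2.5.3 and the build mm9. Per the file headers, MACS2 2.1.1.20160309 called each list against an input, keeping 1 tag per position at a q cutoff of 0.05, with broad linking (0.1) for histone marks and polymerase. Per the file headers, columns give the pileup (a signal that depends on depth), the fold enrichment (a ratio to local background) and −log10 p and q. The larger of ChIP and input was scaled down, per the file headers, so list lengths are not directly comparable between genotypes. TAF lists used a set fragment of 300 bp.

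Overlap meant at least 1 bp. TAF regions join the peaks of both lines, less those touching BirA. TAF replicates 1 and 2 only name the lines, and nothing says how independent they are. Shares, intervals (scipy 1.17.1) and distances were computed in Python 3.11.15, and the overlap step was tested on simulated intervals. No p-value was computed, since antibodies have 1 library per genotype.

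The members and lists were chosen with earlier results of these data known. Sites named are the 10 strongest by Myc, those with Myc (at most 15) or H3K9ac (at most 5) in a knockout, the 3 strongest of each class, at Oct4 and at TAF regions, and the 5 nearest to the edge of the rule on either side, of which the text gives part. Sites outside this rule are said to be chosen after their values were seen. A planned motif and start-site step was not run, because the tables at hand are of another build. Alternatives were stricter thresholds, 50% cover, a 1000 bp window, summits, chromosomes X and Y, BirA regions, strength tertiles and lines left out. Counting neighbouring Myc peaks once was added after seeing the data.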

Additional observations from a re-analysis of the deposited data

Results flagged for a closer look

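RNAP-ser5 was the one target whose count at the Myc sites without H3K9ac moved in opposite directions in the knockouts. The share of the 213 sites with a RNAP-ser5 peak was 12.2 percentage points higher in Taf5l-KO than in wild type, at 44.1% against 31.9%, and differed by −7.98 points in Taf6l-KO, at 23.9% against 31.9%. The difference was not tested, since each value comes from 1 library. The same order held at the 318 Myc peaks with H3K9ac, with 274 in Taf5l-KO, 178 in Taf6l-KO and 240 in wild type. The whole lists on chromosomes 1 to 19 had another order, with 21493 RNAP-ser5 peaks in Taf5l-KO, 15873 in Taf6l-KO and 43394 in wild type. Duplicates made up 77.5% of the RNAP-ser5 tags in Taf5l-KO, 92.6% in Taf6l-KO and 87.8% in wild type, and their part in the result was not tested.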

How the results depend on the processing

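No paired analysis was possible because antibodies have 1 library per genotype and the replicate numbers of the tagged lines only name them in the order listed. A peak missing from a list, as from the shallow RNAP-ser5 library of Taf6l-KO, does not show that the factor was absent. The H3K9ac lists that define and describe the sites are short. List length did not always follow depth: H3K9ac in Taf5l-KO had 22968606 unique tags and 110 peaks, against 17460064 and 4133 in wild type. The part of depth was not tested. Of 7 alternative definitions 6 left the number of sites within 1.5 times of 213, and H3K9ac peaks of −log10 q of at least 5 gave 370. Of 197 recomputed shares 146 moved by less than their interval, as did 83 of 90 shares found again, and of 273 differences 232 did, 40 moved and 1 turned. Leaving out Myc peaks in BirA regions could change nothing, because BirA peaks overlapped 0 of the 213 sites and 0 of the 318 others. That setting supplies 1 of the 6 definitions, 21 of the 146 shares, 10 of the 83 and 21 of the 232, which therefore show nothing.

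Without sites within 1000 bp of H3K9ac, H3K4me3 was at 52.4% in each genotype, RNAP at 60.0% in Taf5l-KO, 59.3% in Taf6l-KO and 57.2% in wild type, RNAP-ser5 at 28.3% in Taf5l-KO, 14.5% in Taf6l-KO and 15.9% in wild type, RNAP-ser2 at 31.0% in Taf5l-KO, 36.6% in Taf6l-KO and 34.5% in wild type, and TAF6L-FB at 9.66%. RNAP found again in Taf6l-KO was then 85.5%, RNAP-ser5 in Taf5l-KO 60.9%, and RNAP-ser2 54.0% in Taf5l-KO and 68.0% in Taf6l-KO.

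With a peak within 1000 bp counted, H3K4me3 was at 74.6% in Taf5l-KO, 74.6% in Taf6l-KO and 77.0% in wild type, RNAP at 78.9% in Taf5l-KO, 78.4% in Taf6l-KO and 78.4% in wild type, RNAP-ser2 at 53.5% in Taf5l-KO, 60.1% in Taf6l-KO and 60.6% in wild type, RNAP-ser5 at 51.6% in Taf5l-KO and 40.8% in wild type, and H3K9ac in Taf6l-KO at 4.23%.

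With other lists at −log10 q of at least 5, H3K4me3 was at 54.5% in Taf5l-KO, 56.8% in Taf6l-KO and 54.0% in wild type, RNAP at 48.8% in Taf5l-KO, 54.5% in Taf6l-KO and 43.2% in wild type, RNAP-ser5 at 12.7% in Taf5l-KO, 4.69% in Taf6l-KO and 7.04% in wild type, RNAP-ser2 at 11.7% in Taf5l-KO, 16.4% in Taf6l-KO and 14.1% in wild type, TAF6L-FB at 8.45%, Oct4 in Taf5l-KO at 0.939% and Myc in Taf6l-KO at 0%. RNAP found again in Taf5l-KO was 84.8% and RNAP-ser2 53.3%.

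By the Myc summit, wild-type RNAP was at 62.4%, RNAP-ser5 at 24.9% and RNAP-ser2 at 42.7%, with Myc in Taf6l-KO and Oct4 found again in Taf6l-KO at 0%. With 50% of the site covered, wild-type RNAP-ser5 was at 24.9% and Myc in Taf6l-KO at 0%. TAF6L-FB was at 1.41% with the replicate 1 peaks that a replicate 2 peak touched, and at 5.63 to 9.39% with either line left out. The Oct4 difference in Taf5l-KO, 3.13 points in all, turned to −0.787 in the strongest tertile of Myc peaks. The cause of these moves was not tested, beyond the settings' own construction.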

Other observations

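Sites without H3K4me3 in wild type were often close to it. The 80 sites had the nearest wild-type H3K4me3 peak at a median of 2398.5 bp, with the nearest at 4 bp and the farthest at 146935 bp. Only 2 of the 213 lay within 1000 bp of a Myc peak with H3K9ac, and 8 lay within 1000 bp of one another.

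The strongest knockout Oct4 call at any of the sites was at chr15:88539743-88539958, a site chosen after its values were seen, with Oct4 at a fold enrichment of 22 in Taf5l-KO and no Oct4 peak in Taf6l-KO or wild type. H3K4me3 was at 7.02 in Taf5l-KO, 4.71 in Taf6l-KO and 4.15 in wild type there, RNAP was at 6.79 in Taf5l-KO, 7.45 in Taf6l-KO and 7.45 in wild type, and TAF6L-FB was at 4.05 in replicate 1. The median Oct4 fold enrichment over the whole Taf5l-KO list was 8.12.

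The few Myc calls in Taf5l-KO were spread unevenly over tertiles of wild-type Myc strength. In the strongest tertile, 0 of 48 Myc peaks without H3K9ac had one, against 14 of 127 with it, a difference of −11.0 points (−17.7 to −2.43). This is 1 of many such contrasts, over 21 lists and 3 tertiles. The tertile ran from a fold enrichment of 9.71 to 41.6, while Myc peaks without H3K9ac reached 25.6 at most. Strength was therefore not matched within it. In the middle tertile the counts were 4 of 88 and 1 of 91, and in the weakest tertile 0 of 77 and 1 of 100. The 4 stand for 3 Taf5l-KO peaks, and whether the spread differs between both kinds of Myc peak was not tested.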
